A study of Mus musculus with 12 samples.

Results

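NF-κB is a family of dimeric transcription factors made from 5 subunit genes, *Nfkb1*, *Nfkb2*, *Rel*, *Rela* and *Relb*. Their RNA was followed together with that of 5 genes that restrain or modify the factor, *Nfkbia*, *Nfkbid*, *Nfkbie*, *Tnfaip3* and *Bcl3*, in lymph node (LN) T cells of normal and co-receptor-altered mice. The genes were picked by symbol from the deposited table of raw counts, which lists 49585 genes. All 10 were present once, and all 10 had enough counts to be tested, as did 13118 genes in all.

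In resting T cells the subunits are held in the cytoplasm by inhibitor of κB (IκB) proteins. Signals from the T cell receptor, CD28 or receptors of the TNF family activate a kinase complex that marks the IκB proteins for degradation, and the freed dimers enter the nucleus and bind DNA. Several inhibitors are themselves targets of the factor, so that their RNA is part of a feedback loop. RNA levels do not show where the proteins are or how active they are.

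RNA-seq was done on 4 groups of sorted LN T cells with 3 samples each. B6 CD4+ and B6 CD8+ T cells came from C57BL/6 mice, in which the *Cd4* locus encodes CD4 and the *Cd8* locus encodes CD8. CD8.1 and CD8.2 T cells came from CD8Dual mice (named 8in4 in the labels), whose altered *Cd4* loci encode a CD8 co-receptor with the CD8α.1 chain in place of CD4 and whose intact *Cd8* loci encode one with the CD8α.2 chain, so that both populations carry CD8 and differ in the locus that makes it. All mice were male and 6 to 10 weeks old by the labels, while the study's methods say of its mice in general that both sexes were used. No stimulus is named for any group. The labels describe cells positive for TCRβ and CD62L, and the study's methods add the absence of CD44. RNA was made from pooled sorted cells, and how many mice or sorts stand behind a sample is not stated in the sources used here, so that the *P* values measure the spread between these samples.

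The total count per sample was 18667474 to 37110502, and a member held between 415 and 7102 counts in a sample. Expression is given as CPM, counts scaled by library totals that were normalized by TMM (trimmed mean of M-values). The smallest level that 3 counts can show lay between 0.0875 and 0.167 CPM, a limit from counting error only. The defining genes of the sort followed the labels: *Cd4* was at 908 to 1004 CPM in B6 CD4+ T cells and at most 1.79 CPM in both groups that use the *Cd8* locus, and *Cd8a* was at 1390 to 1492 CPM in those groups. In CD8.1 T cells *Cd4* was at 47.2 to 51.5 CPM and *Cd8a* at 179 to 201 CPM. Of the libraries, CD8.1 replicate 1 correlated least with its group, and CD8.2 replicate 3 was the deepest and held 3.14% of its counts on the single gene *Gm42418*. Results were therefore also computed without them. Mitochondrial genes took 1.84% to 5.54% of the counts, with the highest shares, 4.93% to 5.54%, in CD8.1 T cells.

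In the mouse genome (GRCm38, also called mm10) the members lie on 7 chromosomes, and 3 of them share chromosome 7. *Relb* lies at chr7:19606217-19629438, *Bcl3* at chr7:19808462-19822770 on the same minus strand, and *Nfkbid* at chr7:30421732-30428746 on the plus strand. *Nfkb2* (chr19:46304320-46312385) and *Rela* (chr19:5637483-5648130) share chromosome 19, both on the plus strand. *Nfkb1* lies at chr3:135584655-135691547, *Rel* at chr11:23736847-23770970, *Nfkbia* at chr12:55489410-55492647 and *Tnfaip3* at chr10:19000910-19015657, all on the minus strand, and *Nfkbie* at chr17:45555703-45563169 on the plus strand. The exons of *Nfkb2* share 299 bases with *Psd* and 531 bases with the non-coding *AC114539.1*, both on the opposite strand, and *Bcl3* shares 161 exon bases with the antisense gene *Gm16175*. *Psd* had at most 6 counts in any sample and *Gm16175* had 0. Whether the counting used strand is not stated in the sources used here, and *AC114539.1* was not analysed here.

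The sequences before the transcription starts are shown for the 3 inhibitor genes whose RNA carried most of the differences described below. RefSeq windows of 250 bases before each start were given for 8 of the 10 members, and *Nfkb1* and *Relb* were without one. Each window was searched on both strands for the κB consensus, the 10-base sequence that NF-κB dimers bind. Matches were found for 6 of the 8 members and in 4.46% of the 27025 genes with such windows. In the lines below, which run 5′ to 3′ along the gene's strand, capitals mark a match, and bases in annotated exons are left out. The *Nfkbia* window is chr12:55492648-55492897 (minus strand), that of *Nfkbid* is chr7:30422156-30422405 (plus strand, the second of its 3 starts), and that of *Bcl3* is chr7:19822771-19823005 (minus strand), all on GRCm38.p6.
Nfkbia: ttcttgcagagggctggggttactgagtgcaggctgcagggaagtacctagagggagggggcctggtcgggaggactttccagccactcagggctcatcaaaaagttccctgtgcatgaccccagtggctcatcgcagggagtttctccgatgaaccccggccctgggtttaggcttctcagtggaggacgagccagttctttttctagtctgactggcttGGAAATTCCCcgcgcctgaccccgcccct
Nfkbid: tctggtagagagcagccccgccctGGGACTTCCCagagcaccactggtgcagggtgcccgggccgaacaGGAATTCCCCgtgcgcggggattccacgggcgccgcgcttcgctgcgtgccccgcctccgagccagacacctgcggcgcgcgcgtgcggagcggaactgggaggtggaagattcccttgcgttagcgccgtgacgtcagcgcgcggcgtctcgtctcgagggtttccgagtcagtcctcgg
Bcl3: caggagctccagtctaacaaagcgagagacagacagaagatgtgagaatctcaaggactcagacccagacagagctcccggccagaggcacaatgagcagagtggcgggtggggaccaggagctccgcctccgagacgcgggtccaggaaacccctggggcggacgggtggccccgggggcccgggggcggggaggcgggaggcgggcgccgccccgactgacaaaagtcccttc
The match before *Nfkbia* began 29 bases upstream of the start. The *Nfkbid* window held matches beginning 226 and 181 bases upstream, while the windows of its other starts held 0. No match was in the *Bcl3* window. *Nfkb2*, the subunit gene with called differences, had matches beginning 39, 38 and 11 bases before its first RefSeq start, in annotated exon sequence that is not shown. A match is a run of letters in these windows, and no binding was measured.

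Of the subunit genes, *Nfkb1*, *Rela* and *Relb* had no called difference in the main fit, and neither had *Rel*, which is described further below. *Nfkb1*, which encodes a precursor that is cut to a DNA-binding subunit without an activation domain, had the narrowest range of group means of any member, 0.11 on the log2 scale, wider than in 4.15% of the tested genes. Its level was 196 to 232 CPM in B6 CD4+, 187 to 215 CPM in B6 CD8+, 194 to 237 CPM in CD8.1 and 191 to 211 CPM in CD8.2 T cells. *Rela*, the subunit of the most studied activating dimer, stood at 115 to 120, 104 to 130, 111 to 159 and 123 to 132 CPM in the same order. *Relb*, the partner of the *Nfkb2* product in the non-canonical pathway, stood at 37.1 to 41.8, 41.1 to 45.03, 41.3 to 42.4 and 42.1 to 51.5 CPM. The groups overlapped in each of the 4 comparisons made for these 3 genes, and none was called. Of the 3, *Rela* was called in CD8.1 against B6 CD4+ T cells once CD8.1 replicate 1 was left out (log2 fold change 0.29, edgeR adjusted *P* = 0.0344) or both libraries that stand apart were (0.29, 0.0471).

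*Nfkb2*, whose precursor product is cut to the DNA-binding partner of RelB, had small differences between the lineages and between the strains. It was at 52.1, 52.3 and 49.7 CPM in the 3 B6 CD4+ samples and at 62.2, 62.1 and 60.9 CPM in the B6 CD8+ samples. In CD8Dual mice it was at 56.9, 53.2 and 62.5 CPM in CD8.1 and at 68.2, 70.5 and 64.4 CPM in CD8.2 T cells. Every CD4+ sample was below every CD8+ sample, and every CD8.1 sample below every CD8.2 sample. The strains separated as well, with every CD8.1 sample above every B6 CD4+ sample and every CD8.2 sample above every B6 CD8+ sample. These strain differences were not called (edgeR adjusted *P* = 0.168 and 0.306). How many of all genes separate in this way with 3 samples per group was not counted, for this or any other member. The order of the groups was B6 CD4+, CD8.1, B6 CD8+ and CD8.2, and the CD8.1 and B6 CD8+ ranges overlapped.

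*Rel* encodes c-Rel, the subunit that T cells use to switch on genes such as *Il2* after activation. Its 3 values were 40.2, 41.3 and 44.2 CPM in B6 CD4+ and 32.7, 30.4 and 38.1 CPM in B6 CD8+ T cells. They were 56.1, 42.1 and 48.5 CPM in CD8.1 and 35.8, 45.7 and 42.7 CPM in CD8.2 T cells. The B6 groups did not overlap and the CD8Dual groups did, and *Rel* was not called in any comparison of the main fit.

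Among the inhibitors, *Nfkbid* and *Bcl3* had the widest ranges. *Nfkbid* encodes IκBNS, a nuclear IκB protein that acts on DNA-bound dimers and is needed in the formation of regulatory T cells. It was at 37.8, 38.7 and 57.6 CPM in B6 CD4+ and at 39.8, 46.7 and 54.0 CPM in CD8.1 T cells. In the other groups it was at 24.4, 23.0 and 29.0 CPM (B6 CD8+) and at 22.3, 25.0 and 24.9 CPM (CD8.2). Every sample of the 2 groups that use the *Cd4* locus was above every sample of the 2 groups that use the *Cd8* locus, and groups of the same locus overlapped.

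*Bcl3*, another nuclear IκB protein, binds dimers of the *Nfkb1* or *Nfkb2* products and can activate or repress. Its 3 values were 33.2, 27.2 and 32.2 CPM in B6 CD4+ and 24.9, 21.1 and 20.9 CPM in B6 CD8+ T cells. They were 29.0, 48.0 and 44.0 CPM in CD8.1 and 17.7, 23.5 and 18.6 CPM in CD8.2 T cells. Replicates 2 and 3 of CD8.1 were above every other sample, and replicate 1 lay within the B6 CD4+ range. Its range of group means, 0.99 on the log2 scale, was wider than that of 81.5% of the tested genes, and that of *Nfkbid*, 0.95, was wider than that of 80.4%.

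*Nfkbia* encodes IκBα, the inhibitor that is degraded and remade in the classical feedback loop. Its 3 values were 127, 145 and 141 CPM in B6 CD4+ and 113, 116 and 116 CPM in B6 CD8+ T cells. In CD8.1 T cells it was 163, 156 and 173 CPM, and in CD8.2 T cells 142, 149 and 145 CPM. The order was B6 CD8+, B6 CD4+, CD8.2 and CD8.1, in which only the B6 CD4+ and CD8.2 ranges overlapped.

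The remaining inhibitors differed little. *Nfkbie*, which encodes IκBε, was at 30.3 to 32.2 CPM in B6 CD4+, 30.7 to 37.7 CPM in B6 CD8+, 29.5 to 36.0 CPM in CD8.1 and 34.9 to 38.6 CPM in CD8.2 T cells. *Tnfaip3* encodes A20, an enzyme that edits ubiquitin chains on upstream signalling proteins. It was at 32.9 to 42.2, 36.6 to 40.8, 36.5 to 47.5 and 45.04 to 46.2 CPM in the same order, and of the 4 comparisons only CD8.2 against B6 CD8+ T cells had groups that did not overlap.

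**Figure D1:**
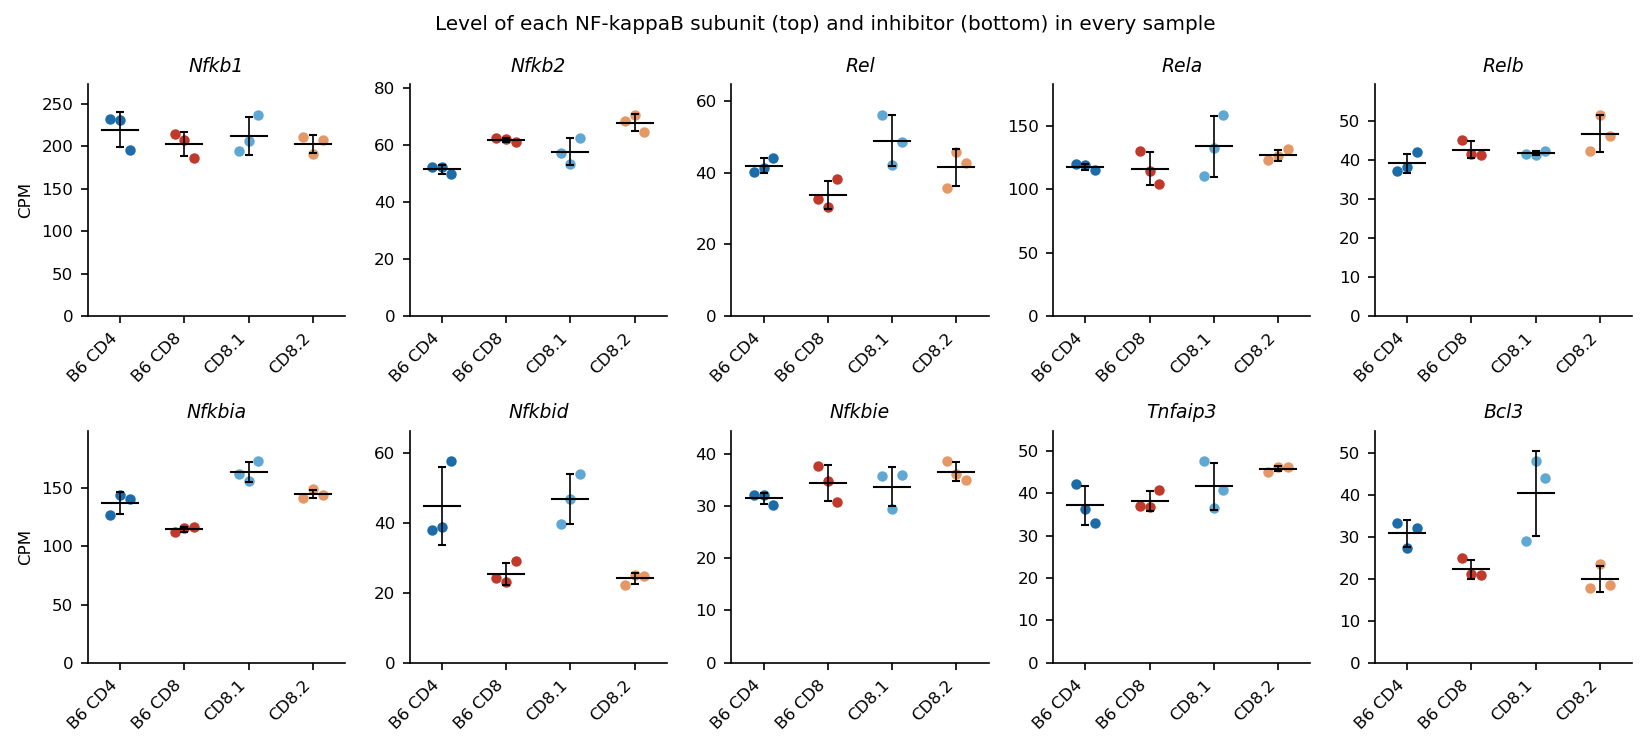
Expression in CPM (vertical axes, each starting at 0) of the 5 subunit genes (top) and 5 inhibitor genes (bottom) in the 12 samples; points are samples, horizontal lines are group means and bars are SD (n = 3). *Nfkbid* and *Bcl3* are higher in B6 CD4+ and CD8.1 T cells than in their counterparts, *Nfkb2* is lower, and *Nfkb1* spans 187 to 237 CPM with all groups overlapping.

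To compare levels between genes, CPM was divided by the length of the gene's exons in kilobases (kb), with overlapping exons merged. On this scale *Nfkbia* was the most abundant member, at 87.3 ± 11.96 CPM per kb over all samples (SD, n = 12), followed by *Rela* at 40.3 ± 4.57 CPM per kb. *Nfkb1* came next at 17.4 ± 1.39 CPM per kb, followed by *Nfkbid* at 15.04 ± 5.31 CPM per kb. *Nfkb2*, *Bcl3*, *Nfkbie* and *Relb* lay between 10.9 and 13.0 CPM per kb, and *Tnfaip3* and *Rel* were lowest at 5.63 ± 0.667 and 5.56 ± 0.935 CPM per kb. The place of *Nfkb1* depends on the length used, since its merged exons cover 12061 bases and its longest annotated transcript 4149 bases. By the longest transcript *Nfkb1* stood at 50.5 CPM per kb, above *Rela* at 45.6 CPM per kb. Within B6 CD4+ T cells *Nfkbid* was at 19.1 ± 4.77 CPM per kb and *Nfkb2* at 11.2 ± 0.311 CPM per kb, while in B6 CD8+ T cells *Nfkbid* was at 10.8 ± 1.33 CPM per kb and *Nfkb2* at 13.5 ± 0.160 CPM per kb (SD, n = 3).

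**Figure D2:**
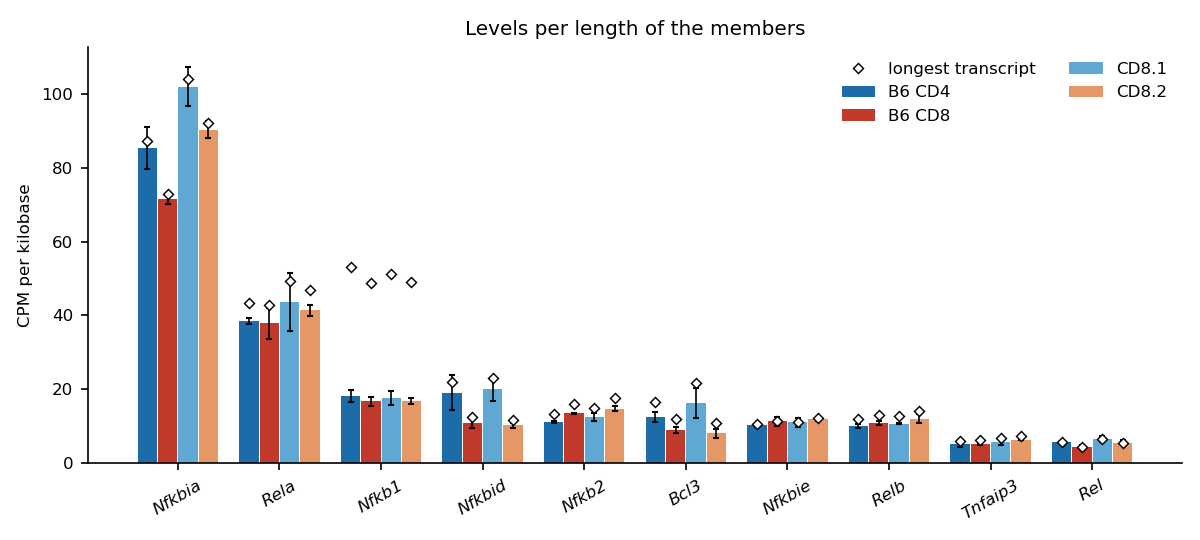
Levels of the members per kilobase of merged exons (bars, mean; error bars, SD, n = 3; vertical axis in CPM per kb from 0), ordered by the mean over all samples, with diamonds for group means per kilobase of the longest transcript. *Nfkbia* leads at 71.4 to 102 CPM per kb in the 4 groups, and the diamonds of *Nfkb1* stand far above its bars.

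Which members differ between helper and cytotoxic lineage T cells was first asked in B6 mice. In B6 CD4+ against CD8+ T cells 3 inhibitors rose and 1 subunit fell. *Nfkbid* was 1.76-fold higher (log2 fold change 0.82 ± 0.15 SE, edgeR quasi-likelihood test with Benjamini-Hochberg adjustment over all tested genes, adjusted *P* = 0.000928), the largest difference among the 10. *Bcl3* was 1.38-fold higher (0.47 ± 0.16, adjusted *P* = 0.0479) and *Nfkbia* 1.20-fold higher (0.26 ± 0.07, adjusted *P* = 0.0135). *Nfkb2* was 1.20-fold lower (−0.26 ± 0.08, adjusted *P* = 0.0182). The other 6 members were not called, among them *Rel* (0.31 ± 0.12, adjusted *P* = 0.0704). Of all tested genes 11.4% were called higher and 11.7% lower. The median log2 fold change was 0.26 over the 5 inhibitors and 0.02 over the 5 subunits, against −0.001 over all tested genes.

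The *Nfkbid* call held in every alternative that kept the limit on the adjusted *P*, with log2 fold changes of 0.60 to 0.91, the lowest without B6 CD4+ replicate 3. The *Bcl3* call did not hold with limma-voom (adjusted *P* = 0.0553), with 1 replicate block across both strains (0.0699) or without any of B6 CD4+ replicates 1 and 3, B6 CD8+ replicates 2 and 3 and CD8.2 replicates 1 and 3 (0.0531 to 0.144). *Nfkb2* lost its call without B6 CD8+ replicate 1 or 2 or B6 CD4+ replicate 3 (adjusted *P* = 0.0643 to 0.0756), and *Nfkbia* without B6 CD8+ replicate 1 or B6 CD4+ replicate 2 (0.0507 and 0.0647). *Rel* was called without B6 CD8+ replicate 3 or CD8.1 replicate 1 (adjusted *P* = 0.042 and 0.0348), without the filter on low counts (0.027), with only the 2 groups in the fit (0.0275) and without both libraries that stand apart (0.0452). These losses took the count of called members from 4 to 2 without B6 CD8+ replicate 1, B6 CD8+ replicate 2 or B6 CD4+ replicate 3. Calls over all tested genes then went from 1499 higher and 1531 lower to 1190 to 1260 higher and 1228 to 1271 lower. With the study's limit for differentially expressed genes, a change of over 5-fold with an unadjusted *P* under 0.05, 3.29% of tested genes and 0 members were called.

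The same question in CD8Dual mice is answered by CD8.1 against CD8.2 T cells, which both carry CD8. Here *Nfkbid* and *Bcl3* rose and *Nfkb2* fell. *Bcl3* was 2.03-fold higher in CD8.1 T cells (1.02 ± 0.16, edgeR adjusted *P* = 0.000234) and *Nfkbid* 1.94-fold higher (0.96 ± 0.15, adjusted *P* = 0.000263). *Nfkb2* was 1.18-fold lower (−0.23 ± 0.08, adjusted *P* = 0.0295). *Nfkbia* was at 0.18 ± 0.07 on the log2 scale and missed the threshold (adjusted *P* = 0.0724). Of all tested genes 14.9% were called higher and 13.8% lower in this comparison.

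*Bcl3* and *Nfkbid* were called under every alternative that kept the limit on the adjusted *P*, with log2 fold changes of 0.87 to 1.20 and 0.84 to 1.08. *Nfkb2* lost its call without the filter on low counts, with only the 2 groups in the fit (adjusted *P* = 0.0612 and 0.0896), or without CD8.1 replicate 2 or CD8.2 replicate 1 or 2 (0.0745 to 0.12), while *Nfkbia* gained one with DESeq2 (0.0324) or a minimum mean of 1 CPM (0.0447). By the limit of over 5-fold, 3.32% of tested genes and 0 members were called.

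Whether the lineage difference itself differed between the strains was tested as an interaction, the log2 fold change in CD8Dual mice minus that in B6 mice. In this test 0 of the 10 members were called by edgeR, DESeq2 or limma-voom. At an unadjusted *P* under 0.05 there was 1, *Bcl3* (0.55 ± 0.23, unadjusted *P* = 0.0281, adjusted *P* = 0.309). Of all tested genes 1.58% had a positive and 0.29% a negative interaction. Without CD8.1 replicate 1, the library with the lowest *Bcl3* level of its group, the *Bcl3* interaction was 0.73 and was called (edgeR adjusted *P* = 0.0136), and it was also called without the filter on low counts (0.54, 0.0294). For *Nfkbid* the interaction was 0.14 ± 0.22 (edgeR adjusted *P* = 0.817), for *Nfkb2* 0.03 ± 0.11 (0.93) and for *Nfkbia* −0.08 ± 0.10 (0.763).

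**Figure D3:**
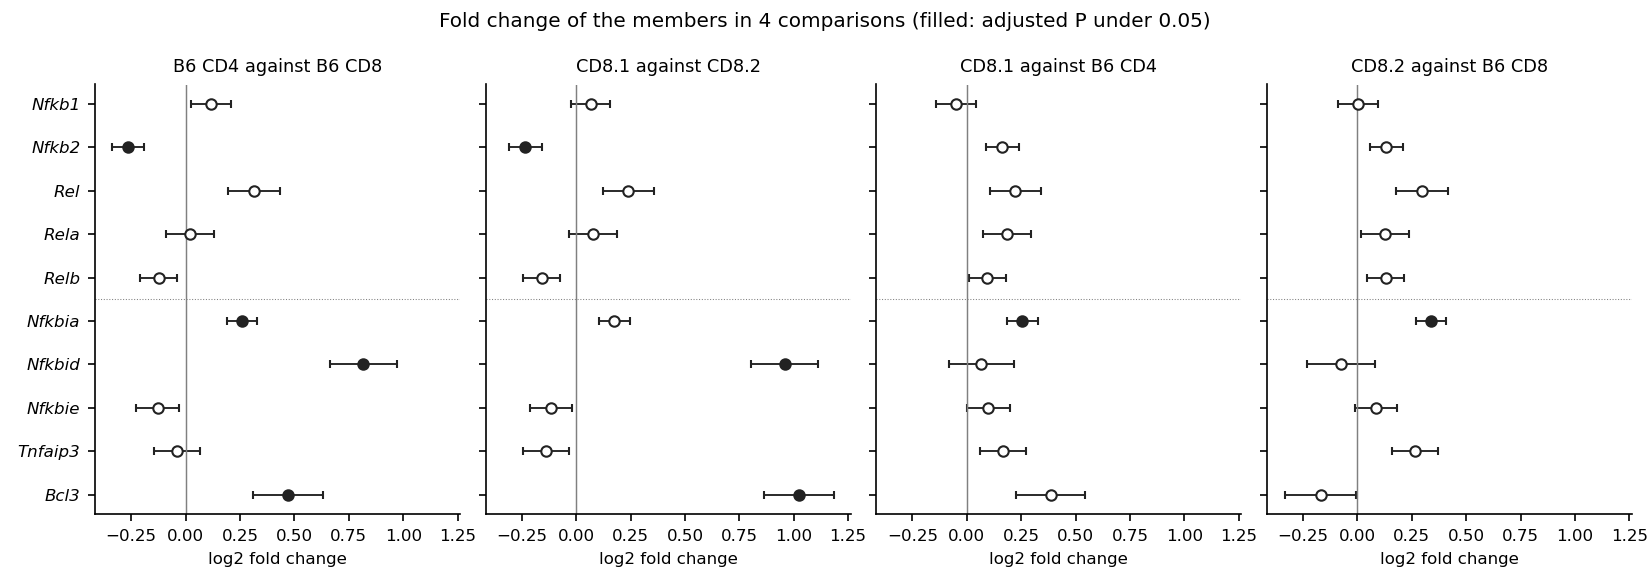
Log2 fold change of each member in 4 comparisons (points; bars, SE; horizontal axes in log2 units; n = 3 per group), with filled points for an edgeR adjusted *P* under 0.05 and a dotted line between subunits and inhibitors. *Nfkbid* lies at 0.82 and 0.96 and *Nfkb2* at −0.26 and −0.23 in the lineage comparisons, and *Nfkbia* is the single filled point in either comparison between strains.

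Groups of the same co-receptor locus were compared between the strains. *Nfkbia* was the single member called in either comparison, and it was higher in CD8Dual mice in both. Its level in CD8.1 T cells was 1.19-fold that in B6 CD4+ T cells (log2 fold change 0.26 ± 0.07, edgeR adjusted *P* = 0.0272), in a comparison in which 6.94% of tested genes were called higher and 5.82% lower. Its level in CD8.2 T cells was 1.26-fold that in B6 CD8+ T cells (0.34 ± 0.07, edgeR adjusted *P* = 0.00896), where 3.29% were called higher and 4.66% lower. No sample enters both comparisons, but both rest on 1 model with a shared estimate of the spread. Same-numbered B6 samples also deviated together, so the 2 results are not independent. Strain cannot be told apart from any difference in how the mice of the 2 strains were kept or their cells handled.

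The higher *Nfkbia* level of CD8.1 against B6 CD4+ T cells rests on several libraries. It was not called without B6 CD4+ replicate 1 or 2, B6 CD8+ replicate 2, CD8.1 replicate 3 or CD8.2 replicate 3 (edgeR adjusted *P* = 0.0528 to 0.14), without the filter on low counts (0.0677) or with only the 2 groups in the fit (0.147), and its log2 fold change stayed between 0.19 and 0.29. In CD8.2 against B6 CD8+ T cells it was lost without CD8.2 replicate 2 (0.32, adjusted *P* = 0.0514). The remaining members had no call in the strain comparisons. *Bcl3* was at 0.39 ± 0.16 in CD8.1 against B6 CD4+ T cells (adjusted *P* = 0.124) and was called once CD8.1 replicate 1 was left out (0.56, adjusted *P* = 0.00517), when 3 members were called in place of 1 and 1546 genes were called higher and 1412 lower of 13389 tested, in place of 911 and 763 of 13118. It was also called without the filter on low counts (0.38, adjusted *P* = 0.00976). *Tnfaip3* was at 0.26 ± 0.11 in CD8.2 against B6 CD8+ T cells (adjusted *P* = 0.14) and was called when only these groups were fitted (adjusted *P* = 0.0139).

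Markers of regulatory T cells differed between the groups. A list of 15 regulatory T cell markers summed to 485 to 645 CPM in B6 CD4+, 149 to 150 CPM in B6 CD8+, 1032 to 1208 CPM in CD8.1 and 142 to 159 CPM in CD8.2 T cells. In the lineage comparisons 14 and 15 of its 15 genes were called higher in B6 CD4+ and CD8.1 T cells and 0 lower. Over all tested genes 11.4% and 14.9% were called higher. In CD8.1 against B6 CD4+ T cells 14 were called higher and 0 lower (median log2 fold change 1.42), beside 6.94% of all tested genes called higher. In this comparison *Nfkbia* was called and *Nfkbid*, at 0.07 ± 0.15, was not. *Foxp3*, the regulatory T cell factor, was at 32.6 to 44.6 CPM in B6 CD4+ and 102 to 168 CPM in CD8.1 T cells, and at 0.182 to 0.529 and 0.809 to 1.46 CPM in the other groups. CD8.1 replicate 1 had the lowest *Foxp3* and the lowest *Bcl3* of its group, but the marker list as a whole was mixed in this library. *Ikzf4*, *Tnfrsf18*, *Tnfrsf4*, *Tnfrsf9*, *Izumo1r* and *Lrrc32* were also lowest there. *Il2ra*, *Ikzf2*, *Ctla4*, *Nrp1* and *Itgb8* were highest there, and *Capg*, *Gpr83* and *Ebi3* lay between. The part of regulatory T cells in the *Nfkbid*, *Bcl3*, *Nfkb2* and *Nfkbia* differences was not tested, and in these bulk samples fewer cells of a type and less RNA per cell cannot be told apart.

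Genes that respond to cell handling and early activation also differed between the lineages. A list of 15 such genes summed to 931 to 1118 CPM in B6 CD4+, 645 to 687 CPM in B6 CD8+, 996 to 1215 CPM in CD8.1 and 736 to 798 CPM in CD8.2 T cells. Of its 12 tested genes 8 and 7 were called higher in B6 CD4+ and CD8.1 T cells and 0 lower. Over all tested genes 11.4% and 14.9% were called higher. *Egr1*, an immediate early gene, was at 95.6 to 124 CPM in B6 CD4+ and 83.2 to 145 CPM in CD8.1 T cells, against 57.0 to 69.4 CPM in both other groups, and *Fos* was at 7.59 to 9.53, 3.70 to 4.20, 3.89 to 5.05 and 1.87 to 3.49 CPM in B6 CD4+, CD8.1, B6 CD8+ and CD8.2 T cells. The part of handling in the member differences was not tested.

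Memory, B cell, myeloid and natural killer (NK) cell markers were read in the same way. The 14 memory and effector markers summed to 226 to 290 CPM in B6 CD4+, 2139 to 2594 CPM in B6 CD8+, 531 to 626 CPM in CD8.1 and 1511 to 1598 CPM in CD8.2 T cells, with 9 called lower and 2 higher in B6 CD4+ against CD8+ T cells, 7 lower and 4 higher in CD8.1 against CD8.2 T cells, and 11 higher and 0 lower in CD8.1 against B6 CD4+ T cells, while *Cd44* was at 33.4 to 37.5, 42.4 to 61.0, 67.9 to 77.8 and 49.5 to 60.1 CPM and *Eomes* at 4.85 to 6.98, 69.4 to 113, 7.02 to 13.1 and 75.6 to 81.0 CPM. The 10 B cell markers summed to 596 to 967 CPM over all samples, highest in CD8.1 T cells (768 to 967 CPM), where *Cd79a* was at 35.8 to 55.5 CPM. The single gene *Ighm* held 454 to 639 CPM of this sum. The 10 myeloid markers summed to 66.2 to 84.8 CPM in the B6 groups, 98.8 to 108 CPM in CD8.1 and 80.8 to 104 CPM in CD8.2 T cells. *Cst3* alone held 62.2 to 94.1 CPM of this sum. Both sums therefore mostly follow 1 gene each and do not measure the content of these cells. The 6 NK and NKT markers summed to 0.910 to 13.0 CPM. Between the strains 4 B cell, 4 myeloid and 3 NK and NKT markers were called higher and 0 lower in CD8.1 against B6 CD4+ T cells. In CD8.2 against B6 CD8+ T cells 3, 1 and 0 were called higher and 0, 1 and 1 lower. Over all tested genes 6.94% and 3.29% were called higher in these 2 comparisons and 5.82% and 4.66% lower. In the lineage comparisons, used above for the memory markers, 11.4% and 14.9% were called higher and 11.7% and 13.8% lower. In CD8.1 against B6 CD4+ and in CD8.2 against B6 CD8+ T cells *Lyz2*, a myeloid gene, was 3.04-fold and 4.35-fold higher (edgeR adjusted *P* = 0.0163 and 0.00653). *Cd79a* was 1.92-fold and 1.94-fold higher in these strain comparisons (edgeR adjusted *P* = 0.0185 and 0.0302), beside *Nfkbia* at 1.19-fold and 1.26-fold. Across all samples *Csf1r* was at 0.170 to 2.22 CPM, *Lyz2* at 1.39 to 16.2 CPM, *Ncr1* at 0 to 0.345 CPM and *Zbtb16* at 0 CPM in every B6 sample and at most 1.02 CPM in CD8Dual samples. The part of these cells in the *Nfkbia* difference between the strains was not tested.

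The rest of the pathway was read from lists. Among 23 kinases and adaptors, which carry the signal to the IκB proteins, 3 were called higher and 3 lower in B6 CD4+ against CD8+ T cells, and 1 higher and 4 lower in CD8.1 against CD8.2 T cells. Over all tested genes, as given above, 11.4% and 11.7% and then 14.9% and 13.8% were called, and nothing particular to the list is read from these counts. *Birc3*, a ubiquitin ligase, was higher in both (log2 fold change 0.39 ± 0.07, edgeR adjusted *P* = 0.00076, and 0.41 ± 0.07, 0.000506), and the adaptor *Traf1* lower in both (−0.74 ± 0.11, 0.000126, and −0.54 ± 0.11, 0.00169). The count in B6 mice, 6, was 3 without B6 CD4+ replicate 2 or 3. Calls over all tested genes then went from 1499 higher and 1531 lower to 1259 and 1235 or 1260 and 1271. The count in CD8Dual mice, 5, was 10 without CD8.1 replicate 1 and 3 without CD8.1 replicate 2 or CD8.2 replicate 1 or 3. Calls over all tested genes went from 1956 higher and 1815 lower to 2437 and 2576 without CD8.1 replicate 1. They were 1339 to 1381 higher and 1293 to 1353 lower in the settings with 3.

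In the strain comparisons *Ikbkb*, which encodes the catalytic kinase of the canonical pathway, and *Traf3*, an adaptor that holds the non-canonical kinase low, fell in both. *Ikbkb* was at −0.61 ± 0.14 in CD8.1 against B6 CD4+ T cells (edgeR adjusted *P* = 0.0128) and at −0.49 ± 0.14 in CD8.2 against B6 CD8+ T cells (0.0442). *Traf3* was at −0.52 ± 0.11 (edgeR adjusted *P* = 0.00681) and −0.37 ± 0.11 (0.0454). In CD8.1 against B6 CD4+ T cells 4 of the 23 genes were called, all lower, 9 without CD8.1 replicate 1, 2 without CD8.1 replicate 2 and 1 without B6 CD4+ replicate 1 or 2. In CD8.2 against B6 CD8+ T cells 3 were called. The count was 0 without CD8.2 replicate 2 or 3 or B6 CD8+ replicate 2. It was 1 without B6 CD8+ replicate 1 or 3, B6 CD4+ replicate 2 or CD8.2 replicate 1. Over all tested genes 6.94% and 3.29% were called higher in these comparisons and 5.82% and 4.66% lower. The 911 higher and 763 lower calls of the first became 1546 and 1412 without CD8.1 replicate 1. They became 429 to 486 higher and 336 to 398 lower without CD8.1 replicate 2 or B6 CD4+ replicate 1 or 2. The 431 and 611 of the second became 163 to 194 and 246 to 278 in the settings with a count of 0. With a count of 1 they became 172 to 320 and 304 to 539.

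Of 17 other inhibitors 16 were tested, and 1 was called higher and 2 lower in B6 CD4+ T cells, against 1 and 4 in CD8.1 T cells. The shares over all tested genes were 11.4% and 11.7% and then 14.9% and 13.8%. Nothing particular to the list is read from these counts. *Nfkbiz*, another nuclear IκB gene, had the direction of *Nfkbid* and *Bcl3* in both comparisons (0.72 ± 0.19, edgeR adjusted *P* = 0.0108, and 1.05 ± 0.20, 0.000902), at a mean of 3.27 to 7.40 CPM in the 4 groups. *Nlrc5* and *Nlrc3*, members of a receptor family that includes regulators of immune signalling, were lower in both, *Nlrc5* by −0.63 ± 0.08 and −0.69 ± 0.08 (edgeR adjusted *P* = 3.37e-05 and 1.61e-05) and *Nlrc3* by −0.88 ± 0.12 and −0.73 ± 0.13 (7.68e-05 and 0.00052). Without CD8.1 replicate 1 the counts were 6 in B6 mice and 8 in CD8Dual mice in place of 3 and 5. Calls over all tested genes then went from 1499 higher and 1531 lower to 1847 and 1901 in B6 mice. In CD8Dual mice they went from 1956 and 1815 to 2437 and 2576.

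Of 21 receptors and ligands that feed the pathway 19 were tested. In B6 CD4+ T cells 9 were called higher and 4 lower, beside 11.4% and 11.7% of all tested genes. In CD8.1 T cells 10 were called higher and 3 lower, beside 14.9% and 13.8%. The list was chosen with earlier results of these data known, so these counts do not test the pathway as a whole. *Cd40lg*, the helper cell ligand of CD40, was at a mean of 111 CPM in B6 CD4+ and 89.0 CPM in CD8.1 T cells, against 0.879 and 1.37 CPM in B6 CD8+ and CD8.2 T cells. *Tnfrsf4*, the costimulatory receptor OX40 and also one of the regulatory T cell markers above, was at 34.1, 73.8, 0.608 and 1.06 CPM in B6 CD4+, CD8.1, B6 CD8+ and CD8.2 T cells. *Il18r1*, a subunit of the IL-18 receptor, was lower in B6 CD4+ and CD8.1 T cells (−1.09 ± 0.15 in both, edgeR adjusted *P* = 6.66e-05 and 7.17e-05). The median log2 fold change of the list was 0.49 in B6 mice and 0.58 in CD8Dual mice, against −0.001 and −0.005 over all tested genes. Between the strains 7 were called higher and 1 lower in CD8.1 against B6 CD4+ T cells, beside 6.94% and 5.82% of all tested genes. The count was 3 in all without B6 CD4+ replicate 1 or 2 or CD8.1 replicate 2. Calls over all tested genes then went from 911 higher and 763 lower to 429 to 486 higher and 336 to 398 lower. In CD8.2 against B6 CD8+ T cells 1 was called higher, beside 3.29% called higher and 4.66% lower over all tested genes. The called gene was *Cd28*, the costimulatory receptor (0.65 ± 0.12, edgeR adjusted *P* = 0.00531). In that comparison 3 were called without CD8.1 replicate 1 and 2 without CD8.1 replicate 3. Calls over all tested genes went from 431 higher and 611 lower to 907 and 1006 and to 451 and 676.

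Of 22 target genes of NF-κB 18 were tested. In B6 CD4+ T cells 6 were called higher and 7 lower, beside 11.4% and 11.7% of all tested genes. In CD8.1 T cells 6 were called higher and 4 lower, beside 14.9% and 13.8%. This list, too, was chosen with earlier results of these data known. *Il2ra*, the high-affinity IL-2 receptor chain and also a regulatory T cell marker, was higher in B6 CD4+ and CD8.1 T cells (4.93 ± 0.20 and 5.77 ± 0.19, edgeR adjusted *P* = 4.71e-11 and 7.71e-12), as was the transcription factor *Irf4* (1.66 ± 0.17 and 1.05 ± 0.16, 2.04e-06 and 0.000143). The chemokine *Ccl5*, also a memory and effector marker, was lower in both (−5.85 ± 0.19 and −2.38 ± 0.17, 4.43e-12 and 5.4e-08), as was the adhesion molecule *Icam1* (−1.44 ± 0.08 and −1.09 ± 0.08, 1.94e-09 and 5.91e-08). The median log2 fold change of the targets was −0.05 in B6 mice and 0.09 in CD8Dual mice. Between the strains 6 targets were called higher and 0 lower in CD8.1 against B6 CD4+ T cells (10 without CD8.1 replicate 1), those with the smallest *P* values being *Il2ra* (1.51 ± 0.14, edgeR adjusted *P* = 1.12e-05) and *Cd83* (1.01 ± 0.18, 0.00238). In CD8.2 against B6 CD8+ T cells 4 were called higher and 1 lower (3 in all without B6 CD8+ replicate 1 or 2 or any of the CD8.2 samples). Shares over all tested genes were 6.94% higher and 5.82% lower in CD8.1 against B6 CD4+ T cells. They were 3.29% and 4.66% in CD8.2 against B6 CD8+ T cells. In the first comparison 911 higher and 763 lower calls over all tested genes became 1546 and 1412 without CD8.1 replicate 1. In the second 431 and 611 became 163 to 226 higher and 246 to 328 lower in the settings with 3 called targets.

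**Figure D4:**
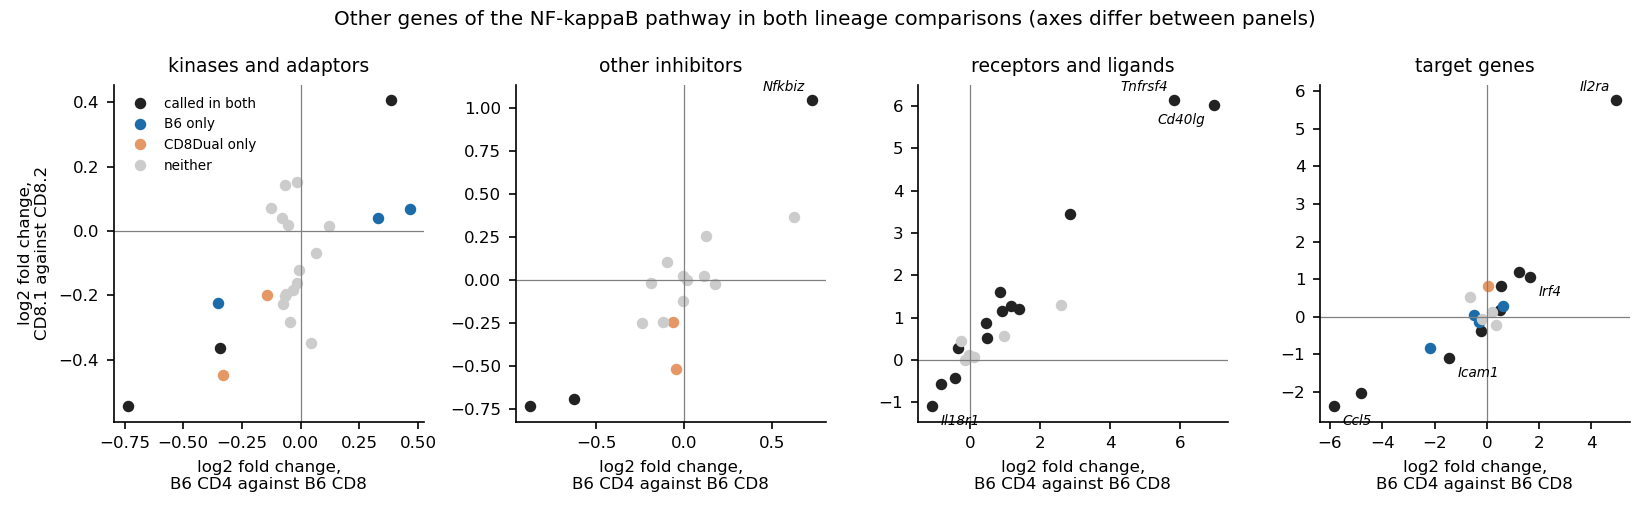
Log2 fold change of the other pathway genes in B6 CD4+ against CD8+ T cells (horizontal axes) and in CD8.1 against CD8.2 T cells (vertical axes), with 1 panel per list, axes that differ between panels and colours for the comparison in which a gene had an edgeR adjusted *P* under 0.05. Kinases, adaptors and other inhibitors stay within 1.1 log2 units in either direction, whereas *Cd40lg*, *Tnfrsf4* and *Il2ra* lie at 4.93 or above on both axes.

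The genes whose pattern over the 12 samples was nearest to that of *Bcl3*, the member with the widest range, were found by the root-mean-square difference of centred log2 CPM. They were *Egr3* (0.12), *Gata3* (0.13), *Zfp36* (0.16), *Ftl1-ps1* (0.16) and *Rbm38* (0.16). Each had its lowest group mean in B6 CD8+ or CD8.2 T cells and its highest in CD8.1 T cells. *Bcl3* itself was lowest in CD8.2 and highest in CD8.1 T cells, so this order follows from the choice of genes and is no separate result. *Egr3*, an early response transcription factor, had group means of 23.2, 31.5, 17.7 and 15.3 CPM in B6 CD4+, CD8.1, B6 CD8+ and CD8.2 T cells, and *Gata3*, a factor of T helper cells, had 29.96, 36.1, 21.2 and 19.8 CPM. *Zfp36* is one of the cell handling genes listed above, and *Ftl1-ps1* is annotated as a processed copy of another gene, so that its reads are uncertain.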

How the data were processed

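The authors aligned reads to mm10 with STAR and made raw counts per gene with RSEM, per the study's methods and the submitters' processing notes, which name no versions. The deposited values are these whole-number counts for 49585 genes in 12 samples, not normalized. Libraries were made from polyadenylated RNA with the SMARTer kit for low input. Annotation was GENCODE M21, which held 99.5% of the table's genes, and promoter sequences were RefSeq's (GRCm38.p6).

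Counts were fitted in R 4.3.3 with edgeR 4.0.16 (TMM, filterByExpr, glmQLFit, glmQLFTest) in a single model of 4 group means, which was tested on simulated data. Over 13118 tested genes, a Benjamini-Hochberg adjusted *P* under 0.05 was a call. SE came from the fold change and F. The alternatives were DESeq2 1.42.0 size factors or Wald test, limma 3.58.1 voom, no filter, a mean of at least 1 CPM, only the groups compared, replicate blocks, each sample left out and the study's limit of over 5-fold, and, chosen after the data were seen, leaving out both libraries that stand apart. The log2 CPM used a prior count of 2. Members and lists were chosen with earlier results of these data known. All members are named, and from each pathway list the called genes with the 2 smallest *P* values per direction may be. The level of 1 marker gene is not reported here. No 2 replicates agreed within sampling noise.

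Same-numbered B6 samples, by the numbers in the labels, deviated together (correlations 0.126, 0.138 and 0.257). The main fit nevertheless has no replicate block, so its *P* values take no account of such pairs. The block was fitted as an alternative. With the replicate block within each strain 4 members were called in B6 mice and 3 in CD8Dual mice, as without it.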

Additional observations from a re-analysis of the deposited data

Results flagged for a closer look

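For 3 other genes of the pathway, and for no member, the lineage difference differed between B6 and CD8Dual mice in the interaction test (edgeR, adjusted over all tested genes). Tested were 23 kinases and adaptors, 16 other inhibitors, 19 receptors and ligands and 18 target genes. Among all tested genes 1.58% had a positive and 0.29% a negative interaction, and nothing particular to the pathway is read from the count. *Tnfrsf1b*, which encodes TNF receptor 2, had an interaction of 0.64 ± 0.10 on the log2 scale (adjusted *P* = 0.0024) and changed direction. It was at 83.6, 81.8 and 94.5 CPM in B6 CD4+ and at 113, 112 and 107 CPM in B6 CD8+ T cells, but at 122, 122 and 114 CPM in CD8.1 and at 98.1, 98.5 and 96.6 CPM in CD8.2 T cells, and neither pair of groups overlapped. *Ccl5* had an interaction of 3.47 ± 0.26 (adjusted *P* = 1.36e-06), with group means of 2.10, 4.82, 122 and 25.1 CPM in B6 CD4+, CD8.1, B6 CD8+ and CD8.2 T cells. *Cd40lg* had an interaction of −0.94 ± 0.19 (adjusted *P* = 0.0179), with means of 111, 89.0, 0.879 and 1.37 CPM in the same order. The receptors and ligands had 1 called interaction in place of 2 with limma-voom or without B6 CD8+ replicate 3 or CD8.2 replicate 2 or 3, and without CD8.1 replicate 1 they had 4, and the target genes had 7 in place of 1 (3 without B6 CD4+ replicate 3). Called interactions over all tested genes went from 207 positive and 38 negative to 718 and 638 without CD8.1 replicate 1. They were 206 and 41 without B6 CD4+ replicate 3. The counts behind the 2 low means of *Cd40lg* are small, and the cause was not tested for any of the 3 genes.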

How the results depend on the processing

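Of 1020 values of the 10 members in 5 comparisons under the alternatives, 978 stayed on their side of the threshold, 26 lost and 16 gained a call, and 0 called values changed direction. These changes fell on 12 of the 50 pairs of member and comparison, most of which were not called in the main fit. Of its calls only *Nfkbid* in both lineage comparisons and *Bcl3* in CD8Dual mice held in all 22 settings, the main fit included. In B6 mice *Bcl3* was called in 14 of 22, *Nfkb2* in 19 and *Nfkbia* in 20. *Nfkb2* was called in 17 of 22 in CD8Dual mice. *Nfkbia* was called in 14 of 21 for CD8.1 against B6 CD4+ and in 20 of 21 for CD8.2 against B6 CD8+. Members called numbered 2 to 5 for B6 CD4+ against CD8+ T cells when single samples were left out (4 with all), 2 to 3 for CD8.1 against CD8.2 (3), 0 to 3 for CD8.1 against B6 CD4+ (1), 0 to 1 for CD8.2 against B6 CD8+ (1) and 0 to 1 for the interaction (0). The limit of over 5-fold left 0 members in every comparison, since no member changed that much. With only the groups compared, 0 members were called for CD8.1 against B6 CD4+ and 2 for CD8.2 against B6 CD8+. Without the filter on low counts 1 member had a called interaction. Without both libraries that stand apart, a choice made after the data were seen, 3 members were called for CD8.1 against B6 CD4+ and 1 for the interaction. The causes of these last changes were not tested. The replicate block within each strain changed no member's call. The block shared by the strains lost *Bcl3* in B6 mice, for 3 called members in place of 4. Same-numbered CD8Dual samples deviated together less than B6 samples (correlations −0.004, 0.091 and 0.119), and numbers did not pair samples across the strains. Of 428 counts of called genes in the pathway lists, 79 moved by over 1.5 times. Over all tested genes, leaving out CD8.1 replicate 1 gave 718 positive and 638 negative interactions in place of 207 and 38, and fitting only the groups compared gave 412 higher and 262 lower calls for CD8.1 against B6 CD4+ in place of 911 and 763. The longest transcript moved 6 of the 10 levels per kilobase, *Nfkb1* most.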
